A study of Mus musculus with 6 samples.

Results

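The nuclei described here are the Crh excitatory neurons of the mouse spinal cord, 1 of 38 neuron subtypes in the deposited annotation. They were taken as all nuclei with the major cell type Neuron and the subtype Crh. This gave 146 of 18514 nuclei in the files, or 146 of 6035 neurons. The study states 20484 nuclei and 6171 neurons, and the remainder was not analysed here. All 6 samples came from C57BL/6 wild type mice with lasting hindlimb paralysis after a severe thoracic contusion. After 30 min on a treadmill, 3 samples came from mice without stimulation (CON) and 3 from mice with TESS, an epidural electrical stimulation of the cord, which was combined with agonists of the 5-HT1a and D1 receptors. The labels do not say whether the CON mice also received the agonists. They name lumbar spinal cord as the source, whereas the dissection protocol names the thoracic injury site. No label says that the replicates of a group were separate animals, so p-values measure only the spread between these samples.

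Crh encodes corticotropin-releasing factor, a peptide best known as the hypothalamic trigger of the stress axis and also made by scattered neurons of the brain and cord. Slc17a6 encodes VGLUT2, the transporter that loads glutamate into synaptic vesicles and that marks most excitatory neurons of the cord. Excitatory interneurons of the dorsal horn are commonly divided by the peptides they make, among them neuropeptide FF, somatostatin, tachykinins and cholecystokinin. Immediate early genes such as Fos are transcribed within minutes of strong neuronal activity and are read as a sign of it.

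The Crh nuclei numbered 28, 34 and 31 in CON 1 to 3 and 10, 29 and 14 in TESS 1 to 3. Their summed unique molecular identifiers (UMIs, 1 per captured RNA molecule) were 51797, 71551 and 46258 in CON and 25162, 36516 and 12315 in TESS. The median per nucleus was 1911.5, 2121.5 and 1415 UMIs in CON and 1996, 1238 and 857 in TESS. TESS 3 was the shallowest library and TESS 1 held the fewest nuclei. The batch number in the metadata was 3 for CON 1, CON 2 and TESS 1, and each of the other samples had a number of its own. Between 7 and 20 cell barcodes were shared by any pair of libraries, and no barcode was shared between Crh nuclei of different libraries.

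Both genes of the label were present. Crh had 10, 10, 18, 4, 13 and 1 UMIs in CON 1 to 3 and TESS 1 to 3, which is 193, 140, 389, 159, 356 and 81.2 counts per 1e+06 UMIs (CPM). CON 3 was the highest and TESS 3, the shallowest library, the lowest, and the groups overlapped. Of the 86 Crh UMIs found in all neurons, 56 (65.1%) lay in these 146 nuclei, and 28 of the 38 subtypes held none. The next subtype, V2a/Slc17a6, had a mean of 13.4 ± 15.9 CPM (SD, n = 6 samples) against 220 ± 124 in the Crh neurons. A Crh UMI was seen in 31 of the 146 nuclei (21.2%), at a median of 1556 UMIs per nucleus. In oligodendrocytes, which should lack the gene and had a median of 433 UMIs, it was seen in 0 of 8837 nuclei, which allows a share with a UMI of up to 0.0339%. Thinned to 500 UMIs per nucleus, with 2 shallower Crh nuclei left out, the share was 8.82% in the Crh neurons and 0.39% in V2a/Slc17a6.

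**Figure D1:**
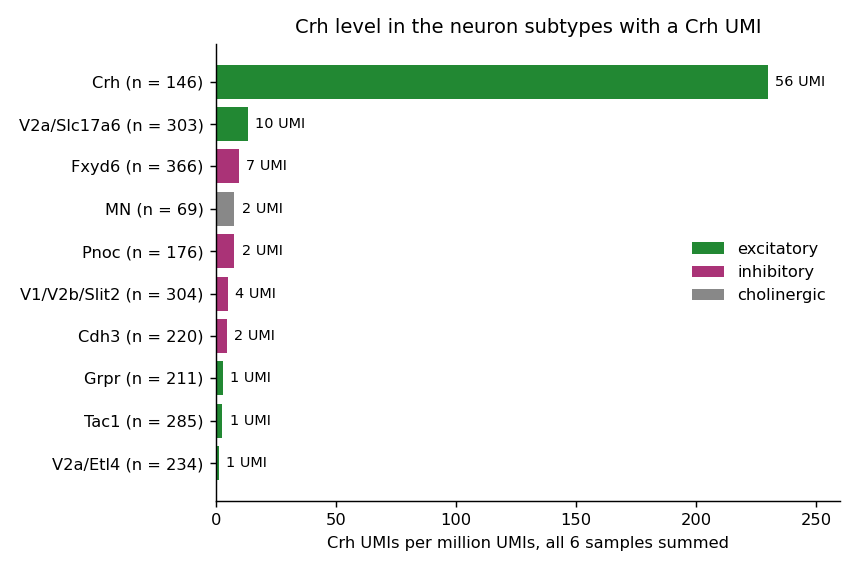
Crh CPM with the 6 samples summed (x axis) in each neuron subtype that had at least 1 Crh UMI (y axis, with its number of nuclei), coloured by transmitter class. The bar of the Crh neurons rests on 56 UMIs, and the next bar, V2a/Slc17a6, on 10.

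Slc17a6 gave 50 UMIs, with 57.9, 252 and 303 CPM in CON and 159, 274 and 81.2 CPM in TESS. Its mean of 188 ± 104 CPM lay below the 285 CPM of the other excitatory neurons, and only CON 3 lay above that mean. CON 1, CON 2, TESS 1 and TESS 3 lay below the whole range of the other excitatory neurons, 268 to 328 CPM. At this depth most nuclei could not be typed one by one. Crh or Slc17a6 was seen in 66 nuclei, both in 7 and neither in 80. Counting all transmitter genes, 38 nuclei held only excitatory ones (the vesicular glutamate transporters), 7 only inhibitory ones (Gad1, Gad2, Slc32a1, Slc6a5), 4 both and 97 none. Chat, which marks cholinergic neurons, had 0 UMIs. UMIs of oligodendrocyte markers, led by Mbp with 100, occurred in 107 nuclei, with 5 or more in 2 nuclei and at most 9 in 1. Mbp stood at 415 CPM in the Crh neurons and 322 CPM in the other excitatory neurons, against 4134 CPM in oligodendrocytes.

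The genes that set these nuclei apart from the 2940 other excitatory neurons are given as a description without a test, because the authors clustered the nuclei on the same counts. Of 3929 genes at 50 CPM or more in the Crh neurons, 181 were over 1 log2 unit higher in them and 77 over 1 log2 unit lower, on a scale of log2(CPM + 10). Genes under 50 CPM in the Crh neurons were left out whatever their level elsewhere, so these counts cannot be set against each other. The difference was 4.22 for Crh itself and 3.47 for Npff, which encodes neuropeptide FF. Npff stood at 116, 293 and 130 CPM in CON and 119, 329 and 81.2 CPM in TESS, against 0 to 14.98 CPM in the other excitatory neurons of the 6 samples. No sample of the Crh neurons reached down to that range. Npff was not limited to them, with 288 CPM (14 UMIs) in the 29 nuclei of the subtype Npyr-2 and 63.6 CPM in Grp when samples were summed. Npff overlaps the annotated gene Gm28047 on the same strand, so its counts are uncertain. C1ql1, a secreted C1q-like protein that binds adhesion receptors at synapses, followed with 215 ± 140 CPM against 17.3.

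Man1a, a mannosidase of the Golgi, stood at 1120, 1090 and 908 CPM in CON and 596, 1314 and 650 CPM in TESS, against 194 CPM in the other excitatory neurons. Rgs6, a regulator of G protein signalling, had 1181 ± 412 against 284 CPM. Stk32a, a kinase, had 212 ± 45.1 against 24.1 CPM, and Abcc9, a subunit of ATP-sensitive potassium channels, had 83.5 ± 41.8 against 2.60 CPM. In Man1a, Rgs6, Stk32a and Abcc9 each of the 6 samples lay above the whole range of the other excitatory neurons. The other genes among the 20 with the largest difference were Zim1, Rreb1, Fbxl7, Gabrg1, Dab2, Iqgap2, Col18a1, Cdh9, Dlk1, Itga8, Dpyd, Fgd5 and Gpr83, with differences of 1.9 to 2.8. Dab2 rested on 9 UMIs, most of its level coming from TESS 3 at 406 CPM, and Fgd5 on 8.

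Among peptides and their machinery, Adcyap1, the precursor of PACAP, stood at 464 ± 255 CPM against 151. Scg2, a granin of dense-core vesicles, had 983 ± 379 against 525 CPM, and Vgf, another granule protein, 271 ± 168 against 78.9 CPM. The substance P receptor gene Tacr1 had 95.5 ± 57.3 against 30.4 CPM, and the neuropeptide Y receptor gene Npy1r 71.0 ± 38.9 against 22.0 CPM. Sst (somatostatin) and Penk (proenkephalin) were near the mean of the class, with 2290 ± 882 against 1804 CPM and 353 ± 171 against 271 CPM. Other peptides of dorsal horn neurons were low. Tac2, which encodes neurokinin B, had 59.4 CPM against 922, and its level came almost wholly from CON 1 (328 CPM), with 28.0 CPM in CON 2 and 0 UMIs in the other 4 samples. Cck had 108 ± 92.2 against 649 CPM.

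Transcription factors of the dorsal horn pointed in both directions. Bcl11b and Bcl11a were higher than in the other excitatory neurons (131 against 29.6 CPM and 252 against 96.2 CPM). Ebf1 and Ebf2 were lower (1213 against 3182 CPM and 274 against 681 CPM), as was Rora (925 against 1621 CPM). Lmx1b, a factor of excitatory dorsal horn neurons, stood at 126 against 87.4 CPM, with 1 sample, TESS 3, at 406 CPM. Nrxn3, a presynaptic neurexin, had 403 ± 159 against 2294 CPM, and Nrg1, a neuregulin, 327 ± 152 against 1708 CPM. The largest level of any Crh sample, 568 CPM for Nrxn3 and 596 CPM for Nrg1, lay below the smallest of the other excitatory neurons, 1748 and 1417 CPM.

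**Figure D2:**
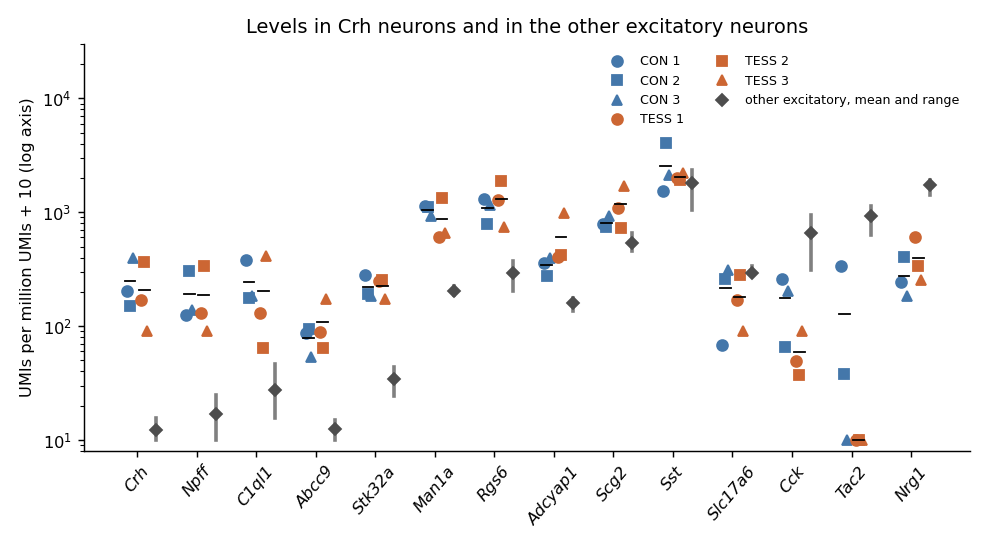
CPM + 10 on a log axis (y) for 14 genes (x) in the Crh neurons of each sample (points, with a line at each group mean) and in the other excitatory neurons (diamond at the mean of 6 samples, bar over their range). Crh, Npff, C1ql1, Abcc9, Stk32a, Man1a, Rgs6, Adcyap1 and Scg2 lie above the bar in each sample, and Nrg1 lies below it in each.

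Over 8105 genes, the summed profile of the Crh neurons was most like those of the subtypes Fxyd6 (Pearson r = 0.896), Grpr (0.887) and V2a/Slc17a6 (0.883). These correlations describe expression across genes, which are not independent replicates. Fxyd6 counted as inhibitory under the transmitter rule used here, although it held 248 CPM of Slc17a6. All 3 lacked Npff or nearly so (0, 7.99 and 0 CPM), and none passed 13.4 CPM of Crh. Other genes named above were at a similar level in 1 or more of them. The low Tac2 and Cck of the Crh neurons (59.4 and 108 CPM) were also low in all 3. Tac2 stood at 51.6, 43.9 and 3.38 CPM in Fxyd6, Grpr and V2a/Slc17a6, and Cck at 105, 22.4 and 146 CPM. Grpr had 192 ± 63.0 CPM of Bcl11b and 270 ± 68.4 CPM of Bcl11a, 81.3 ± 48.0 CPM of Gpr83 and 110 ± 62.6 CPM of Col18a1, against 131, 252, 62.9 and 134 CPM in the Crh neurons. Fxyd6 had 86.0 ± 28.1 CPM of Tacr1 and 241 ± 118 CPM of Vgf, against 95.5 and 271 CPM. Grpr differed further in Sst, with 50.6 CPM against 2290 in the Crh neurons, and in Ebf1, with 3480 CPM against 1213. Ebf1 was lower still in Fxyd6 (732 CPM) and V2a/Slc17a6 (511 CPM). Ebf2 was too, with 67.9 and 33.2 CPM there against 274 CPM in the Crh neurons. Across the 37 subtypes with at least 50 nuclei, the genes whose level followed that of Crh most closely were Abcc9 (r = 0.757), Zim1 (0.694), Npff (0.689), Card10 (0.636) and Gpr83 (0.630). These values rest mainly on 1 point, the Crh neurons, which was the highest for each of them except Gpr83.

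Within the 146 nuclei, Crh and Npff UMIs were not found in the same nucleus. A Crh UMI was seen in 31 nuclei (7, 7, 5, 2, 9 and 1 in CON 1 to 3 and TESS 1 to 3) and an Npff UMI in 30 (4, 11, 5, 3, 6 and 1). None of the nuclei had both, which allows up to 9.68% of the nuclei with a Crh UMI and 10% of those with an Npff UMI to hold both. This limits the share with both UMIs, not the share that expresses both genes. The remaining 85 nuclei had neither. Each sample contributed to each of these sets. Their median depth was 1712, 1961.5 and 1444 UMIs per nucleus. The sets were formed after the data had been seen, and a nucleus without a UMI may still express the gene, so what follows is a description with no test.

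The nuclei with Npff carried most of the somatostatin. Sst stood at 6747 CPM in them, with a UMI in 21 of 30 nuclei, against 893 CPM and 11 of 31 nuclei in those with Crh. The nuclei with neither lay between, at 1467 CPM. The Sst promoter carries a well-known cAMP response element, the site of the factor CREB. It is shown because Sst stood highest in the nuclei with Npff, although Sst UMIs occurred in each of these sets. In the RefSeq table (GRCm38.p6), the 30 bases at chr16:23890874-23890903, minus strand, read 5′ to 3′, with the element TGACGTCA in capitals, are as follows.
Sst: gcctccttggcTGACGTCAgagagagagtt
The element reads the same on both strands and starts 48 bases before the start of the gene in RefSeq. GENCODE places the gene at chr16:23889573-23890958, so by that annotation the element lies inside it. It occurs in 588 of 32851 promoter windows of 300 bases (1.79%).

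Other genes followed the same division. Fam19a2, which encodes a secreted chemokine-like protein, had 719 CPM with Npff and 35.0 CPM with Crh. Erbb4, the neuregulin receptor, had 1401 and 228 CPM. Reln, the extracellular matrix protein reelin, had 332 and 17.5 CPM, and Ankfn1 830 and 123 CPM. Luzp2, Csmd2, Cdh2, Pde11a and Vwc2l complete the 10 genes most in favour of the nuclei with Npff.

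Penk was the reverse. It had 578 CPM and a UMI in 15 of 31 nuclei with Crh, and 0 UMIs in the 30 nuclei with Npff. Penk overlaps A830012C17Rik on the opposite strand. Ebf2, an early B-cell factor family member, had 455 CPM with Crh and 55.3 CPM with Npff. Sorcs3, a sorting receptor of neurons, had 438 and 55.3 CPM, and Aff3 560 and 92.2 CPM. C1ql1 (298 against 36.9 CPM) and Vgf (508 against 111 CPM) also stood higher with Crh. Of 1517 genes with at least 30 UMIs, 116 were over 1 log2 unit higher with Crh and 68 over 1 log2 unit higher with Npff, on a scale of log2(CPM + 50).

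Several genes of the subtype were shared. Man1a had 1209 CPM with Crh, 977 CPM with Npff and 960 CPM with neither. Rgs6 had 1261, 1327 and 1067 CPM in the same order. Slc17a6 had 140, 184 and 242 CPM. These 3 genes ran across the division that Sst and Penk showed.

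**Figure D3:**
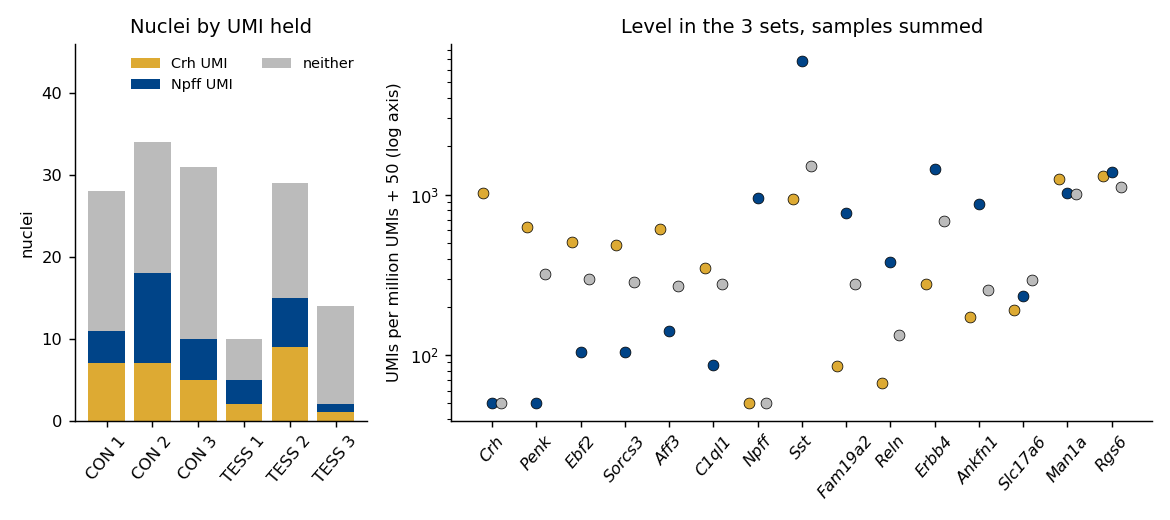
Left, number of Crh nuclei per sample (y) by whether they held a Crh UMI, an Npff UMI or neither. Right, CPM + 50 on a log axis (y) for 15 genes (x) in the same 3 sets with the samples summed. Sst is at 6747 CPM with Npff and 893 CPM with Crh, whereas Man1a and Rgs6 are nearly level.

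The share of Crh neurons among neurons did not separate the groups. It was 2.35% (95% exact Clopper-Pearson interval 1.56 to 3.37), 3.11% (2.16 to 4.32) and 2.51% (1.71 to 3.54) in CON 1 to 3. It was 1.36% (0.654 to 2.49), 2.71% (1.82 to 3.86) and 1.99% (1.09 to 3.32) in TESS 1 to 3. The group means of 2.65% ± 0.40 and 2.02% ± 0.67 (SD, n = 3) differed by -0.63 percentage points, and the groups overlapped (two-sided exact permutation test, p = 0.3). The smallest p that 3 samples against 3 can give is 0.10. Intervals cover counting error only, and nuclei recovery also sets a share. The median number of UMIs per Crh nucleus was 452 lower in TESS (1364 ± 580 against 1816 ± 363, two-sided exact permutation test, p = 0.3), again with overlap.

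The central comparison of the study is TESS against CON. In the Crh neurons, 694 genes had enough UMIs to be tested, and 0 (0%) passed an adjusted p of 0.05 in edgeR's quasi-likelihood test. At an unadjusted p under 0.05 there were 45 genes (6.48%), and DESeq2 called 0 with 14 at that level. The 3 TESS samples lay all above or all below the 3 CON samples in 88 genes (12.7%), of which 40 were higher in TESS (5.76%) and 48 lower (6.92%). The median difference over the 694 genes was -0.01 on the log2 scale. In simulated counts of the same size, 72.3% of genes changed by 2 log2 units were recovered and 26.7% of those changed by 1, over 674 genes tested. Of 92 calls there, 8 were false. The spread between samples was set to the same value for all genes, not estimated from these data. Changes of 1 log2 unit would mostly have been missed at this depth if the samples vary as simulated.

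The gene with the smallest p was Ntng1, which encodes netrin-G1, a membrane-anchored adhesion molecule of axons that binds a partner on the postsynaptic side. It lies at chr3:109780040-110144011 on the minus strand (GRCm38) and overlaps Gm25681 and Gm12535 on the opposite strand. The sources used here do not give the strand of counting, so whether reads of those genes enter its counts is not known. Its UMIs numbered 61, 125 and 56 in CON and 7, 30 and 2 in TESS, or 2297, 3387 and 2334 against 524, 1520 and 314 CPM of the TMM-normalized total of tested genes. Each TESS sample lay below each CON sample. The difference was -1.52 ± 0.35 (log2, SE) and did not pass (edgeR, adjusted p = 0.186). It passed without TESS 2, at -2.59 (edgeR, adjusted p = 0.0252). With the batch as a term the difference was -2.44, in a fit with 1 residual degree of freedom. Each sample outside batch 3 has a batch of its own, so that value is TESS 1 against CON 1 and CON 2.

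The other genes with the smallest p did not pass either. The long noncoding RNA Gm28928 differed by -1.51 (edgeR, adjusted p = 0.361), with 979, 1192 and 792 CPM in CON and 299, 456 and 157 CPM in TESS. Emc10, a subunit of the membrane protein insertion complex of the endoplasmic reticulum, had 640, 623 and 625 CPM in CON and 299, 101 and 157 CPM in TESS. Both were lower in each TESS sample than in each CON sample. In CPM of all UMIs, Emc10 was also lower without overlap in the other excitatory neurons (mean 321 in CON, 191 in TESS). The same held in inhibitory neurons (294 and 200 CPM). For Gm28928 the groups overlapped in both of these classes. Camkv, a kinase-like protein of neurons, differed by -1.61, but TESS 3 (627 CPM) lay inside the CON range. Camkv was also lower in the other excitatory neurons, without overlap (mean 272 CPM of all UMIs in CON, 182 in TESS). In inhibitory neurons its groups overlapped. Spock3, a proteoglycan, differed by -0.75 without overlap. On the higher side stood Pam, the enzyme that amidates peptide ends and so completes many neuropeptides, with 1544, 1355 and 1334 CPM in CON and 4565, 1773 and 2509 CPM in TESS. Its difference was 1.05 ± 0.30 (edgeR, adjusted p = 0.361), the groups did not overlap, and the gene overlaps several annotated genes. Its value rested on TESS 1, the highest sample, and was 0.47 without it. With the batch as a term, where the TESS difference is again TESS 1 against CON 1 and CON 2, Pam was at 1.66. Ccdc88a differed by 1.10, Pcdh15 by 0.95, Cmip by 0.88 and Trpm3, a cation channel, by 0.65, of which only Trpm3 had groups that overlapped. With the batch as a term Trpm3 was at 1.18, and it was 0.32 without TESS 1 and 0.42 without CON 1. Leaving out 1 sample also moved Pcdh15 by over 1.5 times, to 0.61 without CON 1 and 1.51 without CON 2, and Ccdc88a to 0.71 without TESS 1.

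Peptide genes were few in the tested set. Of 24 neuropeptide genes 5 were tested, 4 with a higher and 1 with a lower value in TESS, and 0 were called. Their median was 0.61, against -0.01 for all 694 genes. Penk had the smallest p, with 490, 325 and 542 CPM in CON and 823, 608 and 1255 CPM in TESS, a difference of 0.86 ± 0.40 (edgeR, adjusted p = 0.710) without overlap. Sst differed by -0.41 and Adcyap1 by 0.61, with overlap in both. Peptide processing genes, led by Pam, gave 13 tested of 17, 7 higher and 6 lower, with a median of 0.26 and 3 without overlap (12.7% of all tested genes were without overlap). Pcsk1, a prohormone convertase too low to test, had 5 UMIs in CON and 6 in TESS. The peptides Nts and Gal had 3 UMIs and 1 UMI in all.

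Crh itself was too low to be tested across genes, as was every member of its family. The Crh neurons held 3 UMIs of its receptor Crhr1, 1 of Crhr2 and 0 of the binding protein gene Crhbp and of the urocortin genes Ucn, Ucn2 and Ucn3. The summed level of the family was 247 ± 128 CPM in CON and 244 ± 144 CPM in TESS. Receptors for the 2 agonists were hardly seen. Htr1a, the 5-HT1a receptor gene, had 1 UMI (CON 2) and Drd1, the D1 receptor gene, 0 of 243599 UMIs, which allows up to 12.3 CPM. The serotonin receptor genes with most UMIs were Htr2c with 46 and Htr1f with 37.

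Genes of synaptic contact and excitability fell on both sides. Of 47 synaptic adhesion genes 33 were tested, 18 higher and 15 lower in TESS, with 0 called, 5 without overlap and a median of 0.06. For all 694 genes the share without overlap was 12.7%. Of 42 voltage-gated channel genes 20 were tested, 10 in each direction, with 0 called, 1 without overlap and a median of 0.02. Ionotropic glutamate receptor genes gave 7 higher and 5 lower of 12 tested, among them Grin2b, an NMDA receptor subunit, with -0.71 and no overlap. GABA and glycine receptor genes gave 5 higher and 6 lower of 11 tested, among them Glrb with -0.62 and no overlap. Of 7 tested neuron markers 3 were higher and 4 lower, and Rbfox3 differed by 0.91 with overlap.

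The other lists had at most 6 tested members and 0 called. Dorsal horn transcription factors gave 3 higher and 3 lower, with -0.76 for Bcl11a and -0.19 for Ebf1. The values of the remaining members with the smallest p in their lists, all with overlapping groups, were 1.14 for Vgf, 0.02 for Nr3c2, 0.26 for Rora, -0.79 for Ndufa4, -0.38 for Rpl41, 0.09 for Hsp90b1 and -0.09 for Slc17a6. Gpc5, a marker of astrocytes, differed by -1.15, also with overlap. Over their lists, 9 of 10 oligodendrocyte markers were detected and summed to 692 to 965 CPM in CON and 715 to 1462 CPM in TESS, and 8 of 10 astrocyte markers to 405 to 692 and 278 to 731 CPM, with Aqp4 at 0 UMIs. Of 10 microglia markers 8 summed to 86.5 to 154 CPM in CON and 39.7 to 162 CPM in TESS. Of 7 oligodendrocyte precursor markers 4 summed to 57.9 to 130 CPM in CON and 39.7 to 162 CPM in TESS, with Pdgfra at 0. Of 9 endothelial markers 3 were detected, with 220 UMIs in CON and 87 in TESS, and Cldn5 was at 0. Ebf1, also on the list of dorsal horn factors, gave 295 of these endothelial UMIs. The part of these markers in the differences was not tested. Fkbp5 and Nfkbia, glucocorticoid targets, had 6 and 3 UMIs in CON and 4 and 2 in TESS, and Cep19 had 4 and 1. Gm15261 had 9, 14 and 7 UMIs in CON and 0, 5 and 1 in TESS, or 151 to 196 CPM against 0 to 137 CPM, without overlap.

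The TESS difference of each gene in the Crh neurons was then set against that in the other excitatory neurons of the same samples. Of 5656 genes tested for this difference of differences, 2 passed (0.0354%), Ntng1 and RP23-231J2.1, and 282 had an unadjusted p under 0.05 (4.99%). In the simulation of this test, 40.4% of genes changed by 2 log2 units were recovered and 4.76% of those changed by 1. In CPM of all UMIs, Ntng1 stood at 1178, 1747 and 1211 in CON and 278, 822 and 162 in TESS in the Crh neurons. In the other excitatory neurons it was 278, 365 and 294 in CON and 364, 387 and 317 in TESS, with overlap. The CON level in the Crh neurons, 1378 ± 320 CPM, was above that of the other excitatory neurons, 312 ± 46.5 CPM, and in TESS the levels were 421 ± 352 and 356 ± 35.9 CPM. The interaction was -1.87 ± 0.34 (log2, SE; edgeR, adjusted p = 0.000165), where the median over all tested genes was -0.19.

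Leaving out TESS 1 ended this call, with an interaction of -1.62 (edgeR, adjusted p = 0.157). With each of the other samples left out in turn it passed, at -3.00 to -1.68. Among the 3 most similar subtypes, Ntng1 had 532 ± 25.3 CPM in CON and 594 ± 165 CPM in TESS in Grpr, 476 ± 77.1 and 458 ± 23.8 CPM in V2a/Slc17a6, and 318 ± 64.8 and 288 ± 160 CPM in Fxyd6. The groups overlapped in each of them. In inhibitory neurons the means were 262 and 300 CPM. Oligodendrocytes held 17.8 ± 0.62 CPM in CON and 31.8 ± 5.51 CPM in TESS, higher in TESS without overlap.

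By nucleus, a Ntng1 UMI was seen in 21 of 28, 27 of 34 and 19 of 31 nuclei in CON and in 5 of 10, 17 of 29 and 2 of 14 in TESS. The most in 1 nucleus was 19 UMIs, in CON 2. With samples summed, the level was 1136 CPM in CON and 795 CPM in TESS in the nuclei with Crh, 908 and 370 CPM in those with Npff, and 1774 and 446 CPM in those with neither. By nucleus the order was not the same in each set. In the nuclei with Crh, where TESS rests on 16 Ntng1 UMIs, a Ntng1 UMI was seen in 10 of 19 nuclei in CON and 10 of 12 in TESS. In those with Npff it was seen in 15 of 20 and 4 of 10, and in those with neither in 42 of 54 and 10 of 31. The last set held 163 of the 242 Ntng1 UMIs of CON. The depth per nucleus was lower in TESS 2 and TESS 3 than in the CON samples, and its part in the result was not tested. Inside batch 3, where TESS 1 is the only TESS sample, Ntng1 differed between TESS and CON by -2.45 (edgeR, adjusted p = 0.778).

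**Figure D4:**
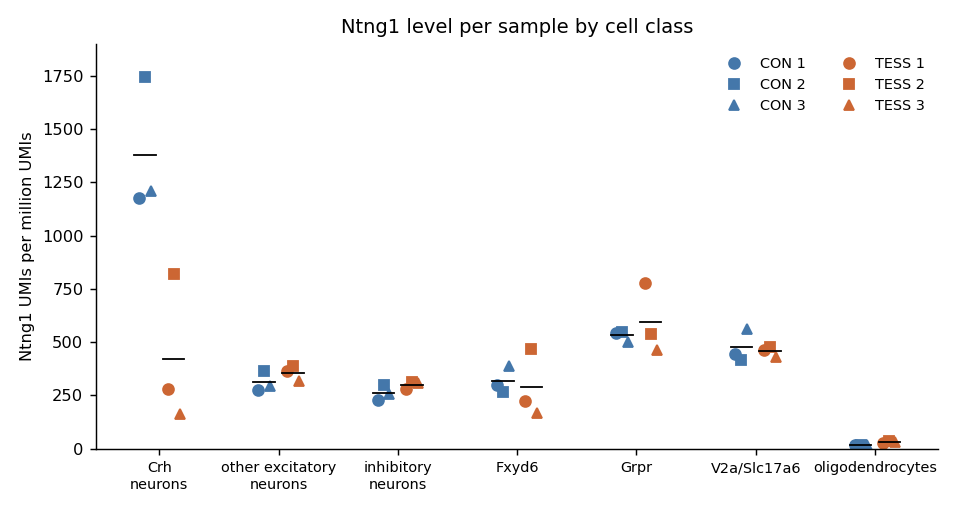
Ntng1 CPM of all UMIs (y) per sample in 7 cell classes (x), with a line at each group mean. In the Crh neurons the 3 CON samples lie between 1178 and 1747 CPM and the 3 TESS samples between 162 and 822 CPM. In the other neuron classes shown the groups overlap.

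RP23-231J2.1, a symbol without a match in the annotation used, was the other gene that passed, with an interaction of -1.35 ± 0.30 (log2, SE; edgeR, adjusted p = 0.0150). In the Crh neurons it had 132, 141 and 115 UMIs in CON and 22, 106 and 2 in TESS, or 2548, 1971 and 2486 against 874, 2903 and 162 CPM. TESS 2 was the highest of the 6 samples and TESS 3 the lowest, so the groups overlapped. In the other excitatory neurons it stood at 509 ± 20.7 CPM in CON and 664 ± 145 CPM in TESS, with overlap. Among the most similar subtypes, V2a/Slc17a6 had 1091 ± 39.9 CPM in CON and 1439 ± 336 CPM in TESS, without overlap. Fxyd6 had 1103 ± 304 and 1530 ± 470 CPM and Grpr 456 ± 192 and 366 ± 52.2 CPM, both with overlap. Leaving out any sample except TESS 2 ended the call, with an adjusted p of 0.121 to 0.999 in edgeR.

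Immediate early genes were too low in the Crh neurons to be tested one by one, so their UMIs were summed. Of 33 listed genes in the table, 25 had at least 1 UMI. The sums were 6, 16 and 11 UMIs in CON and 11, 28 and 4 in TESS. This is 116, 224 and 238 CPM in CON and 437, 767 and 325 CPM in TESS. Each TESS sample lay above each CON sample, by 1.33 in mean log2(CPM + 10), with the smallest p that 3 against 3 allows (two-sided exact permutation test, p = 0.1). After adjustment over the 28 lists whose summed levels were compared it was 0.70.

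A few nuclei carried much of this. In TESS 1, 8 of the 11 UMIs lay in 1 nucleus, and only 2 of its 10 nuclei held any. Without the nucleus with the most such UMIs in each sample, the levels were 79.7, 187 and 178 CPM in CON and 138, 653 and 271 CPM in TESS. The groups then overlapped, and the difference was 1.02 (two-sided exact permutation test, p = 0.3). Nuclei with at least 1 such UMI made up 5 of 28, 12 of 34 and 8 of 31 in CON and 2 of 10, 12 of 29 and 4 of 14 in TESS.

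Single genes gave too few UMIs for a direction. Btg2, an antiproliferative early gene, had 0 UMIs in CON and 2, 2 and 1 in TESS. Per1, a clock gene that activity also induces, had 2 in CON and 6 in TESS, and Sik1, a kinase, 0 and 3. Of the orphan nuclear receptor genes, Nr4a1 had 1 and 4, and Nr4a3 0 and 5, all of the latter in TESS 2. Egr1 had 1 and 3, Fos 1 and 2 and Fosb 0 and 1. Jund had 6 and 0, Dusp1 3 and 0, Junb 2 and 1, Arc 2 and 1 and Npas4 1 and 0. The Crh neurons held 169606 UMIs in CON and 73993 in TESS, so 1 UMI is a higher level in TESS. By CPM, the 2 and 1 UMIs of Junb and Arc are therefore higher in TESS. In CPM of the summed group, 17 of the 25 detected genes were higher in TESS and 8 lower, with 10 seen only in TESS and 6 only in CON. The share over all genes at such low counts was not computed, so this count gives no direction.

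The level also differed outside the Crh neurons. In the other excitatory neurons it was 141, 170 and 159 CPM in CON and 204, 417 and 255 CPM in TESS, a difference of 0.80 without overlap (two-sided exact permutation test, p = 0.1). In inhibitory neurons the means were 175 ± 4.86 and 341 ± 91.1 CPM, and in oligodendrocytes 232 ± 30.7 and 352 ± 34.3 CPM, each without overlap. The difference in the Crh neurons exceeded that in the other excitatory neurons by 0.53, with overlap between the groups (two-sided exact permutation test, p = 0.3). A response particular to the Crh neurons was not detectable here.

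**Figure D5:**
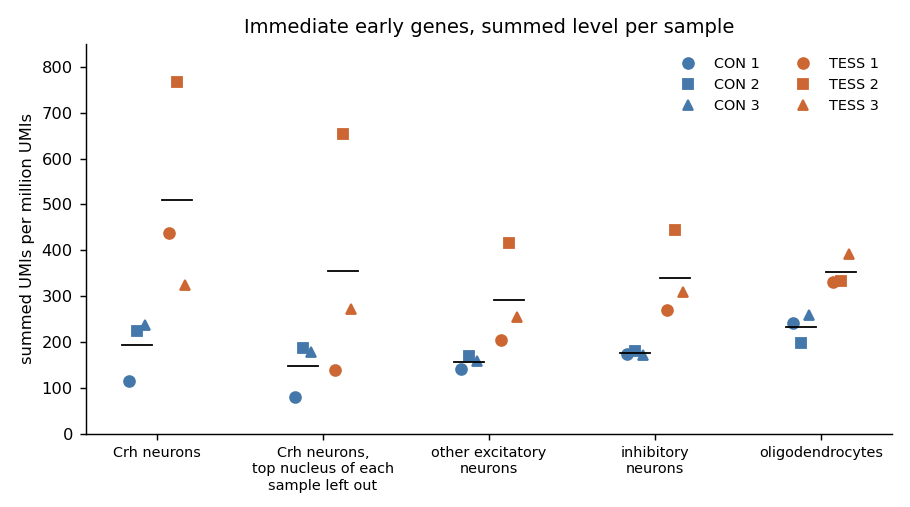
Summed CPM of immediate early genes (y) per sample in 4 cell classes and in the Crh neurons without the top nucleus of each sample (x), with a line at each group mean. In the Crh neurons CON lies between 116 and 238 CPM and TESS between 325 and 767 CPM. Without the top nuclei TESS 1 falls to 138 CPM, inside the CON range.

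Among the 28 summed lists, 4 (14.3%) had groups that did not overlap. Beside the immediate early genes these were the delayed activity genes (3078 ± 218 CPM in CON, 3761 ± 256 CPM in TESS), the circadian clock genes (1262 ± 132 and 1768 ± 308 CPM) and the oxidative phosphorylation genes, which were lower in TESS (3395 ± 517 and 2427 ± 702 CPM). Each reached p = 0.1 in the two-sided exact permutation test, and 0.70 after adjustment over the 28 lists. The clock list includes Rora, with 925 CPM over the 6 samples. Rora gave 202 UMIs, where the whole clock list had 211 in CON and 127 in TESS. The TESS difference of Rora was 0.26 in edgeR, with overlap between the groups. Of the delayed activity genes 4 were tested, 2 higher and 2 lower in TESS.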

How the data were processed

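Single-nucleus RNA was captured in droplets (10x chemistry version 2, 5000 nuclei aimed at per library, per the labels' protocols). The deposited table gives UMI counts by gene and nucleus. Reads were processed with Cell Ranger 2.2.0 and Seurat 3 on GRCm38, per the submitters' processing notes. For filters on nuclei, doublet treatment and the strand of counting, the sources used here give nothing. The metadata deposited by the authors give the cell types, a batch number of unstated meaning and a mitochondrial fraction per nucleus, at most 1.08% in the Crh nuclei. No nucleus was removed.

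UMIs were summed per sample and class and tested with edgeR 4.0.16 (TMM, filterByExpr with a minimum count of 10, quasi-likelihood F test, Benjamini-Hochberg), in R 4.3.3. The interaction fit held the sample as a block. DESeq2 1.42.0, other filters, left-out samples, the batch and the replicate number were alternatives. A subtype was excitatory where its vesicular glutamate transporter UMIs exceeded those of GABA and glycine genes (20 of 38). Named genes were those called, else the 5 with the smallest p in each direction, 1 per list and a fixed set; 2 of them are not reported here. Coordinates came from GENCODE vM21. The method was tested on simulated data. The members and lists were chosen with earlier results of these data known, and the division by Crh and Npff, the top-nucleus alternative and the excess over other excitatory neurons were chosen after the values were seen.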

Additional observations from a re-analysis of the deposited data

Results flagged for a closer look

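The TESS difference of Ntng1 differed between the Crh neurons and the other excitatory neurons, with an interaction of -1.87 on the log2 scale that passed edgeR's adjusted test. It was lower in 3 of 3 TESS samples than in any CON sample of the Crh neurons. RP23-231J2.1 passed the same test with an interaction of -1.35, but its TESS samples lay on both sides of the CON samples.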

How the results depend on the processing

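In the Crh neurons the number of genes called for TESS against CON was 0 as reported and also with another scaling, another filter, no filter, DESeq2 and nuclei of at least 500 UMIs. Inside batch 3, where the TESS arm is 1 sample assumed to vary like CON, it was also 0, with a smallest adjusted p of 0.778. It was 9 with the batch as a term (6 higher, 3 lower, with 1 residual degree of freedom, among them Pam, Trpm3, Vgf and Ntng1) and 0 to 1 with each sample left out in turn (Malat1 without CON 1, Ntng1 at -2.59 without TESS 2). Between same-numbered samples, deviations from the group means correlated at 0.00091, 0.021 and 0.045 over 797 genes. Between differently numbered samples the values were -0.049 to 0.050. With sums this sparse, values so near 0 cannot show whether the numbers pair the samples. With the replicate block 1 gene was called, Ntng1 at -1.69 (edgeR, adjusted p = 0.00064). Ntng1 was lower in TESS under each of these settings, at -2.59 to -1.26.

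The number of genes whose response differed from the other excitatory neurons was 2 and ran from 0 to 3 with samples left out. It was 1 against all other neurons and 1 with the subtypes Fxyd6 and V1/V2b/Slit2 added, a choice made after the data were seen. Ntng1 kept its direction in each of these (-3.00 to -1.62). RP23-231J2.1 lost its call against all other neurons (edgeR, adjusted p = 0.153) and with those subtypes added (0.0752). The immediate early level kept its direction under each alternative (0.997 to 1.60 with samples left out).

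Over 25 named genes and 344 alternative values, 17 changed sign, all in genes that were not called, and the cause was not tested. With samples left out in turn, Slc17a6 ran from -0.67 to 0.086 (above 0 without CON 2, TESS 1 or TESS 3), Nr3c2 from -0.10 to 0.16 (below 0 without CON 2, CON 3 or TESS 3), Rora from -0.093 to 0.67 (below 0 without TESS 1) and Hsp90b1 from -0.20 to 0.33 (below 0 without CON 2, CON 3 or TESS 3). With no filter, Nr3c2 was -0.26, Rora -0.048 and Hsp90b1 -0.19. With the batch as a term, Nr3c2 was -0.088 and Hsp90b1 -0.75, and inside batch 3 they were -0.092 and -0.75.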
